A study of Mus musculus with 9 samples.

Results

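The WNT signalling genes measured here are the secreted WNT ligands, their R-spondin enhancers, the frizzled and LRP receptors, the secreted antagonists, and the proteins that carry the signal to the nucleus. They were chosen by gene symbol alone, from the probe sets to which the array annotation gives exactly 1 symbol, and the rule for genes used no measured value. In all, 41 of the 8251 genes on the array met the rule, with 49 probe sets among them, and each gene is described by the probe set with its highest mean over the 9 arrays. The genes comprised 14 WNT ligands, 2 R-spondins, 10 receptors and co-receptors, 7 secreted antagonists, 7 intracellular transducers and 1 factor of the TCF/LEF family.

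Total RNA of mouse embryonic orofacial tissue was measured on gestation day (GD) 12, GD13 and GD14, with 3 arrays a day numbered 1 to 3 in the titles. The labels set the groups apart by day only and name no treatment or genotype. They give neither the strain nor whether the arrays of a day came from separate litters. The p-values therefore measure only the spread between these samples, which may be technical. Values are intensities, a linear brightness per probe set that the authors had scaled between arrays.

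WNT proteins are secreted, lipid-modified signals that bind frizzled receptors together with the co-receptors Lrp5 and Lrp6. In the canonical branch, receptor binding recruits dishevelled and axin and stops the destruction of beta-catenin, which then enters the nucleus and activates genes with TCF and LEF factors. R-spondins strengthen the response by keeping frizzled receptors at the cell surface, while DKK proteins bind the LRP co-receptors and SFRP proteins bind the ligands themselves. In mice, Wnt5a, Lrp6 and Rspo2 are each needed for a closed palate.

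Of the 41 genes, 36 passed the filter on low values and were tested. The other 5, the ligands Wnt2b, Wnt7a and Wnt8a, the receptor Fzd6 and the dishevelled gene Dvl3, lay at or under the filter intensity of 10.4 on average and were not tested. Their values ran from 1.7 to 14.2 for the 3 ligands, from 1.4 to 11.4 for Fzd6 and from 2.7 to 16.5 for Dvl3. Such values are near the lower end of the intensities on these arrays.

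The third arrays stood apart from the others before any WNT gene was considered. Beta-actin is probed at both ends of its transcript, and its 3'/5' signal ratio, a measure of RNA and labelling quality, was 1.42, 1.25 and 1.37 on the third arrays of GD12, GD13 and GD14. On the other 6 arrays it lay between 1.54 and 2.44, and there it was higher on each later day. For the genes that were highest on the third array of every day, and for the called genes, values without the third arrays are given too. The facial mesenchyme markers were measured for 13 of 13 genes, and none of them averaged under the filter. In tissue RNA, fewer cells of a type and less RNA per cell cannot be told apart.

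Between GD12 and GD14, 4 of the 36 tested WNT genes changed. The antagonists Dkk1 and Dkk2 and the enhancer Rspo1 rose, and the enhancer Rspo2 fell, while 32 genes did not pass. The test was limma across all probe sets, with a Benjamini-Hochberg adjusted p under 0.05 counted as a change, and it called 4.3% of all 9326 tested probe sets (3.24% higher and 1.06% lower). The fit with the replicate number as a block called 2 WNT genes, Rspo1 and Dkk1, and 6.65% of all probe sets. Without the third array of every day, the 2 called genes were Wnt5a and Dkk1, with 3.34% of probe sets called. A moderated F-test over the 3 days called Dkk1 (adjusted p = 0.033), where it called 2.58% of all probe sets. This F-test call of Dkk1 ended without any 1 of 7 of the 9 arrays (adjusted p 0.0549 to 0.119), the exceptions being GD13 replicate 3 (0.0273) and GD14 replicate 3 (0.0449). Without the third arrays it ended too (0.084), and the F-test then called Wnt5a in place of Dkk1, while without GD14 replicate 2 it called Rspo2.

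**Figure D1:**
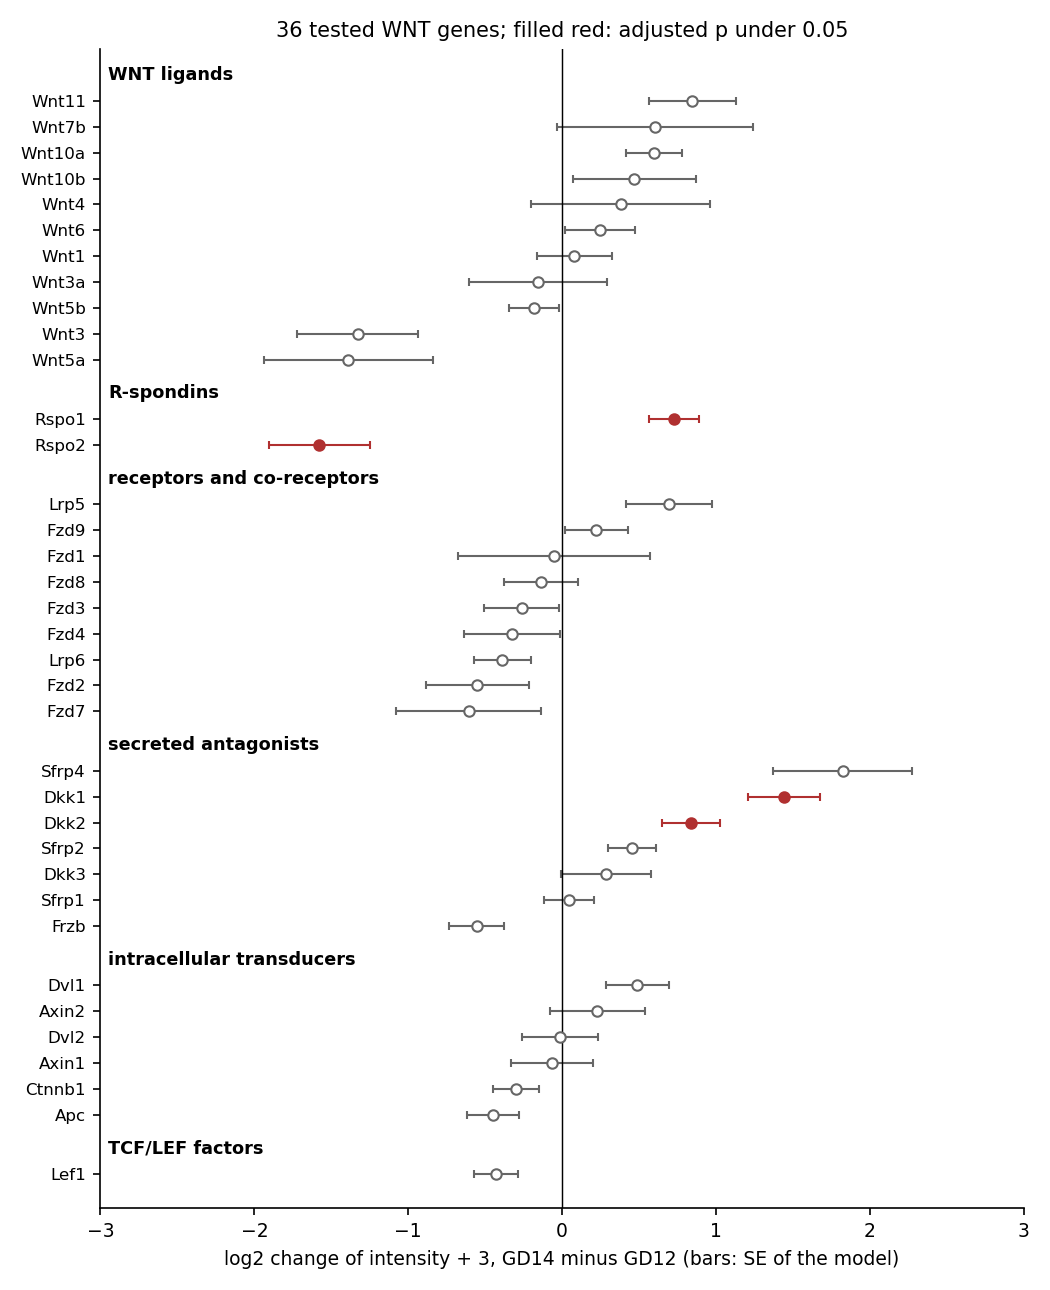
The log2 change of each of the 36 tested WNT genes, GD14 minus GD12 on the log2(intensity + 3) scale, is plotted by class, with bars for the standard error of the limma model (3 arrays a day). Filled red points mark the 4 genes with an adjusted p under 0.05: Dkk1, Dkk2 and Rspo1 lie right of 0 and Rspo2 left of it.

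No WNT gene passed in a single daily step. In limma, 0 of 36 were called for GD13 against GD12 (0.643% of all probe sets) and 0 for GD14 against GD13 (0.0429% of all probe sets). At an unadjusted p under 0.05 the counts were 9 of 36 for the first step, where 11% of all probe sets reached it, and 3 of 36 for the second, where 7.18% did. For GD14 against GD12, 15 of 36 had an unadjusted p under 0.05, beside 17.5% of all probe sets. The difference between the daily steps passed for 0 WNT genes and for 0 of all 9326 probe sets, with 1 WNT gene and 4.86% of probe sets at an unadjusted p under 0.05.

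The secreted antagonists held both called DKK genes. Dkk1, which blocks the LRP co-receptors and is needed for head formation in mice, had intensities of 33.9, 46.2 and 38.8 on the GD12 arrays, 54.2, 58.8 and 87.2 on the GD13 arrays, and 107.5, 141.7 and 91.8 on the GD14 arrays. Every array of a later day lay above every array of the earlier days. Dkk1 averaged 114 ± 25.5 on GD14 and 39.6 ± 6.19 on GD12 (SD, n = 3 each), a 2.71-fold rise (log2 1.44, SE 0.23, adjusted p = 0.0108). Arrays of the same number differed by 1.58, 1.56 and 1.18 on the log2 scale. The call held in all 22 alternatives run, with adjusted p between 0.00286 and 0.0481, and the log2 change was 1.57 without the third arrays.

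Dkk2, a relative that also binds the LRP co-receptors, measured 27.9, 39.6 and 30.5 on the GD12 arrays, 46.3, 48.6 and 52.7 on the GD13 arrays, and 74.6, 54.1 and 53.6 on the GD14 arrays. The days did not overlap, although 2 GD14 arrays lay only just above the highest of GD13. The rise over both days was 1.78-fold (log2 0.84, SE 0.19, adjusted p = 0.0435), to 60.8 ± 12.0 on GD14 against 32.7 ± 6.14 on GD12 (SD, n = 3 each). It was called in 5 of 21 alternatives. With the replicate block the adjusted p was 0.0555, without the third arrays it was 0.135, and it lay between 0.0549 and 0.147 when any single array other than GD12 replicate 2 was left out.

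The promoter windows of the called genes are shown where a window was available, which was so for Dkk1, Dkk2 and Rspo1. For Rspo2, which was also called, no window was available. Each window runs from 250 bases before to 50 bases after the gene start, 5′ to 3′ on the gene's strand, from RefSeq on GRCm38.p6. Capitals mark the letters CTTTGAA, or else CTTTGAT, or else CTTTGTA, or else CTTTGTT, the core that TCF and LEF factors recognise, searched on both strands, and TATAAA, the TATA box, searched on the gene's strand. These motifs did not overlap.
Dkk1 (chr19:30549447-30549746, minus strand): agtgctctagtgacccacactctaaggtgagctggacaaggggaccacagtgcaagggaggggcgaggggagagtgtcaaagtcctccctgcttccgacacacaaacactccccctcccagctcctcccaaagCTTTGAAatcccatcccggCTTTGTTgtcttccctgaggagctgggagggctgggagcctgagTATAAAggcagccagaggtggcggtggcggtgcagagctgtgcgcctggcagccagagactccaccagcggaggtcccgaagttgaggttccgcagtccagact
Dkk2 (chr3:132085042-132085341, plus strand): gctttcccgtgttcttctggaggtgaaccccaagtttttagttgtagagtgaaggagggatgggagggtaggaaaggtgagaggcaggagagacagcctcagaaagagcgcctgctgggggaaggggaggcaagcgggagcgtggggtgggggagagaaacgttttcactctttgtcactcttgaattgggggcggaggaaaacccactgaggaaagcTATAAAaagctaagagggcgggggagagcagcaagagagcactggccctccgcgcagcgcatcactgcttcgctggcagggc
Rspo1 (chr4:124986180-124986479, plus strand): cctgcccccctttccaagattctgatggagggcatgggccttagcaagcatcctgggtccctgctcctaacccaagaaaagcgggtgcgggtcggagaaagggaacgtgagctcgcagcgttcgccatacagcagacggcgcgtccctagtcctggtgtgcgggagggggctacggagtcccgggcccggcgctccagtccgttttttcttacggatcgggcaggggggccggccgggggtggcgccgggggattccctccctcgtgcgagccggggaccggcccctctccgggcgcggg

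The Dkk1 window held 2 of the TCF/LEF cores, and at least 2 were found in 1.94% of all 32851 windows of this length. At least 1 core was found in 16.9% of all windows. Among the WNT genes, 25 of 41 had a window, and these genes have 32 windows. A core was found in 6 of the 32 (18.8%), close to the share of all windows, in Dkk1, Fzd7, Lef1, Wnt11, Wnt3 and Wnt5b. Both DKK windows held TATAAA, which 8.32% of all windows did, starting 54 bases before the gene start in Dkk1 and 32 bases before it in Dkk2. The Rspo1 window held neither motif and had 29 CpG pairs, where the DKK windows had 9 and 11 and the median of all windows was 7. A match of letters shows no binding, and a missing match says nothing about the factor.

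The SFRP genes and Frzb encode soluble proteins with a frizzled-like domain that can hold WNT ligands away from their receptors. Sfrp4 measured 24.7, 6.3 and 26.9 on the GD12 arrays, 42.6, 55.3 and 55.3 on the GD13 arrays, and 93.1, 74.9 and 42.5 on the GD14 arrays. All GD14 arrays exceeded all GD12 arrays, but the second GD12 array lay under the filter intensity and the log2 change was 1.82 (SE 0.45, adjusted p = 0.0592). It did not pass, and it passed in 4 of 21 alternatives.

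Sfrp2, which marks facial mesenchyme in mice, measured 2889.1, 2676.7 and 3009.1 on the GD12 arrays, 2835.3, 2924.6 and 3398.5 on the GD13 arrays, and 3750.3, 3519.4 and 4524.4 on the GD14 arrays. The GD14 arrays lay above all arrays of the earlier days (log2 0.45 against GD12, SE 0.16, adjusted p = 0.173). Frzb went the other way, with 608.0, 475.3 and 404.9 on the GD12 arrays, 369.2, 359.5 and 391.9 on the GD13 arrays, and 342.9, 298.0 and 357.9 on the GD14 arrays. The GD14 arrays lay below all arrays of the earlier days (log2 -0.56 against GD12, SE 0.18, adjusted p = 0.141). Neither gene passed, but Sfrp2 did with quantile normalization (adjusted p = 0.0494) and with the actin ratio as a covariate (adjusted p = 0.0462), and Frzb did with array weights (adjusted p = 0.0496). Sfrp1 was lower on every GD13 array than on any array of the other days, with 279.9 to 311.3 on GD13 against 313.1 to 432.2 on GD12. For Sfrp1 the log2 change was -0.32 (adjusted p = 0.525) for GD13 against GD12 and 0.36 (adjusted p = 0.694) for GD14 against GD13. Dkk3, a divergent DKK family member, averaged 186 ± 62.3 on GD14 and 148 ± 18.4 on GD12 (SD, n = 3 each) and did not pass (log2 0.29, adjusted p = 0.689). Without the third arrays the log2 change was 0.13 in Dkk3 (adjusted p = 0.645) and 0.39 in Sfrp2 (adjusted p = 0.196).

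The 2 R-spondins measured moved in opposite directions, and both passed the test. Rspo1 measured 38.4, 38.9 and 37.9 on the GD12 arrays, 61.7, 56.4 and 57.4 on the GD13 arrays, and 68.8, 53.6 and 76.2 on the GD14 arrays. All arrays of GD13 and GD14 lay above all arrays of GD12, while the arrays of GD13 and GD14 overlapped. Rspo1 rose 1.66-fold to 66.2 ± 11.5 on GD14, against 38.4 ± 0.5 on GD12 (SD, n = 3 each; log2 0.73, SE 0.16, adjusted p = 0.0389). The call held in 8 of 22 alternatives, with an adjusted p of 0.139 without the third arrays and 0.125 with median scaling. With single arrays left out, the adjusted p was 0.0337 without GD14 replicate 2 and between 0.0587 and 0.138 without any of the other 8.

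Rspo2, which is needed in mice for limb and palate development, measured 95.6, 72.5 and 141.4 on the GD12 arrays, 45.0, 45.0 and 34.1 on the GD13 arrays, and 26.9, 51.4 and 21.9 on the GD14 arrays. All arrays of GD13 and GD14 lay below the lowest GD12 array. Rspo2 fell 2.98-fold, to 33.4 ± 15.8 on GD14 against 103 ± 35.1 on GD12 (SD, n = 3 each; log2 -1.58, SE 0.33, adjusted p = 0.0311). The third arrays of GD12 and GD14 held both the highest and the lowest value, and without the third arrays the log2 change was -1.10 (adjusted p = 0.154). With the replicate block the adjusted p was 0.0531. Leaving out single arrays ended the call for GD12 replicates 1 (0.0879) and 3 (0.0960), GD13 replicates 1 (0.0536) and 2 (0.0524), and GD14 replicates 1 (0.118) and 3 (0.0764).

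For both R-spondins most of the change lay between GD12 and GD13. The first step had a log2 change of 0.57 (SE 0.16, adjusted p = 0.201) in Rspo1 and -1.22 (SE 0.33, adjusted p = 0.189) in Rspo2. The second step had 0.16 (adjusted p = 0.923) in Rspo1 and -0.36 (adjusted p = 0.909) in Rspo2, and the difference between the steps passed in neither. Dkk1 had nearly equal steps of 0.69 (adjusted p = 0.308) and 0.75 (adjusted p = 0.454).

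**Figure D2:**
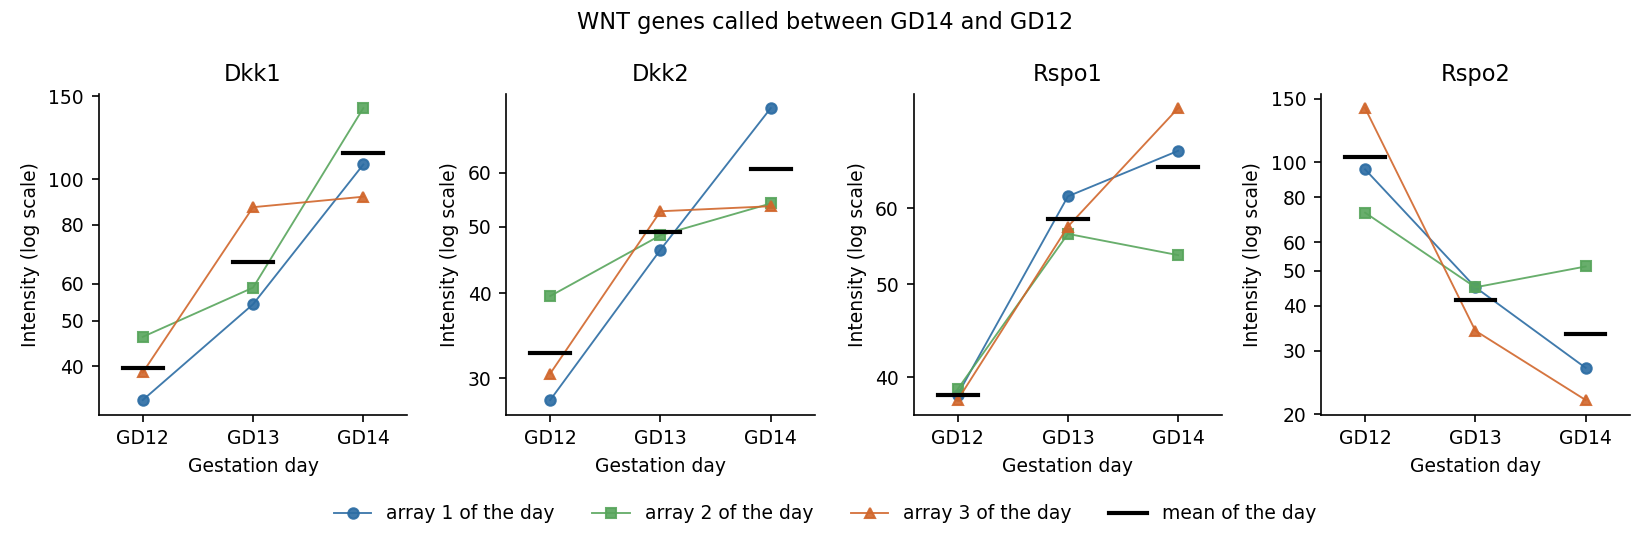
Intensities of Dkk1, Dkk2, Rspo1 and Rspo2 on the 9 arrays are plotted by gestation day on log axes, with a symbol and line for each replicate number and black bars for the mean of the day. The GD14 arrays lie above the GD12 arrays for Dkk1, Dkk2 and Rspo1 and below them for Rspo2, with GD14 means of 114, 60.8, 66.2 and 33.4.

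Of the WNT ligands, 11 were tested, and 0 rose and 0 fell between GD12 and GD14, beside 4.3% of all tested probe sets called. Wnt5a, a ligand of the non-canonical branch that directs growth of the palate and limbs in mice, measured 202.3, 212.8 and 236.2 on the GD12 arrays, 82.0, 70.0 and 175.2 on the GD13 arrays, and 51.2, 47.4 and 213.0 on the GD14 arrays. The first and second arrays were lower on each later day, whereas the third arrays stayed high. Arrays of the same number differed between GD14 and GD12 by -1.92, -2.10 and -0.15 on the log2 scale. With all 9 arrays the change was -1.39 (SE 0.55, adjusted p = 0.229). Without the third array of every day it was -2.01 (adjusted p = 0.0147), without GD14 replicate 3 alone it was -2.07 (adjusted p = 0.0213), and with the actin ratio as a covariate it was -0.75 (adjusted p = 0.143).

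Wnt3, a canonical ligand of facial epithelium, measured 34.5, 57.6 and 55.6 on the GD12 arrays, 42.4, 41.1 and 48.1 on the GD13 arrays, and 34.7, 8.2 and 16.9 on the GD14 arrays. The GD14 arrays lay below all GD13 arrays and overlapped with GD12, since array 1 of GD14 was level with array 1 of GD12. The log2 change against GD12 was -1.33 (SE 0.39, adjusted p = 0.112), and it was -1.77 without GD14 replicate 1 (adjusted p = 0.0323).

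Wnt11, a ligand that guides cell movement, measured 46.0, 20.1 and 22.5 on the GD12 arrays, 43.7, 53.8 and 53.4 on the GD13 arrays, and 44.8, 49.6 and 63.8 on the GD14 arrays. Only the first GD12 array reached the later days (log2 0.85, SE 0.28, adjusted p = 0.159), and the change was 1.18 without it (adjusted p = 0.0284). Wnt10a, a ligand of tooth and skin epithelium, measured 41.0, 59.0 and 54.9 on the GD12 arrays, 74.0, 70.5 and 71.4 on the GD13 arrays, and 66.2, 83.2 and 89.2 on the GD14 arrays. Its GD14 and GD12 arrays did not overlap, and its log2 change of 0.60 (SE 0.18, adjusted p = 0.119) did not pass.

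The other tested ligands were Wnt1, Wnt3a, Wnt4, Wnt5b, Wnt6, Wnt7b and Wnt10b, with log2 changes from -0.18 in Wnt5b to 0.60 in Wnt7b for GD14 against GD12. Their adjusted p lay between 0.616 and 0.912. Wnt7b and Wnt4 varied most within a day: Wnt7b had 14.9, 14.6 and 52.6 on GD14 and 14.1, 4.1 and 38.2 on GD12, and Wnt4 had 41.2, 16.1 and 48.9 on GD14 and 42.5, 11 and 28.1 on GD12. The probe sets of Wnt10b differed in sign. The one with the highest mean had a log2 change of 0.47 (adjusted p = 0.616), whereas another had 7.9, 7.4 and 6.9 on GD14 and 9.2, 22.1 and 14.7 on GD12 (log2 -0.76, adjusted p = 0.33), and neither passed.

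Among receptors and co-receptors, 9 were tested, and 0 rose and 0 fell between GD12 and GD14, beside 4.3% of all tested probe sets. Fzd2, which acts with Fzd1 in palate closure in mice, measured 811.3, 737.4 and 940.1 on the GD12 arrays, 425.5, 518.6 and 800.3 on the GD13 arrays, and 435.4, 440.5 and 927.6 on the GD14 arrays. It showed the same split as Wnt5a, with lower values after GD12 on the first and second arrays and high values on the third. The log2 change of Fzd2 was -0.55 (SE 0.33, adjusted p = 0.448), and -0.82 without the third arrays (adjusted p = 0.0769) and -0.17 with the actin ratio as a covariate (adjusted p = 0.616). Fzd1 had 105.3, 152.6 and 132.8 on the third arrays of the successive days and between 34.9 and 49.7 on the other 6, and its log2 change was -0.05 (SE 0.62, adjusted p = 0.981). Without the third arrays the change of Fzd1 was -0.24 (adjusted p = 0.421), and with the replicate block the adjusted p was 0.874. Between arrays of the same number, Fzd1 differed by 0.09, 0.12 and 0.52 for GD13 against GD12 and by -0.48, -0.22 and -0.20 for GD14 against GD13, on the log2 scale.

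Lrp6, the co-receptor needed for a closed lip and palate in mice, measured 455.1, 417.2 and 429.2 on the GD12 arrays, 346.7, 301.0 and 315.6 on the GD13 arrays, and 381.8, 374.3 and 252.8 on the GD14 arrays. All GD13 and GD14 arrays lay below all GD12 arrays (log2 -0.39 for GD14 against GD12, SE 0.19, adjusted p = 0.324). Another probe set of Lrp6 had a log2 change of -0.83 (adjusted p = 0.28). The related co-receptor Lrp5, known for its role in bone mass, had 65.5, 79.6 and 49.4 on GD14 and 46.0, 36.7 and 32.9 on GD12. These arrays did not overlap either, and the log2 change was 0.70 (SE 0.28, adjusted p = 0.235). Neither co-receptor passed.

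Fzd3, a receptor of the planar polarity branch, had 2 probe sets, both with a negative log2 change, of which only the dimmer passed. The one with the higher mean had 171.7, 275.0 and 197.0 on GD14 and 202.2, 254.6 and 314.5 on GD12 (log2 -0.26, SE 0.24, adjusted p = 0.65). The dimmer one had 20.0, 29.9 and 17.8 on GD14 and 40.7, 51.4 and 46.2 on GD12 and was called lower (log2 -0.96, adjusted p = 0.0418). The remaining frizzled genes, Fzd4, Fzd7, Fzd8 and Fzd9, had log2 changes from -0.61 in Fzd7 to 0.22 in Fzd9, with adjusted p between 0.578 and 0.832.

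Among intracellular transducers, 6 were tested, and 0 rose and 0 fell between GD12 and GD14, beside 4.3% of all tested probe sets. Ctnnb1, which encodes beta-catenin, measured 3858.2, 3494.4 and 4347.0 on the GD12 arrays, 3959.8, 3708.4 and 3822.9 on the GD13 arrays, and 3448.1, 2872.2 and 3163.5 on the GD14 arrays. Every GD14 array lay below every array of the earlier days, at a log2 change of -0.30 against GD12 (SE 0.15, adjusted p = 0.343). Apc, the scaffold that helps to destroy beta-catenin, had 37.7, 39.9 and 44.4 on GD14 and 53.8, 54.9 and 60.9 on GD12 (log2 -0.45, SE 0.17, adjusted p = 0.21). Its GD14 and GD12 arrays did not overlap.

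Dvl1, a dishevelled gene that relays the signal from frizzled receptors, measured 339.5, 258.2 and 267.9 on the GD12 arrays, 369.3, 359.8 and 250.8 on the GD13 arrays, and 345.8, 421.7 and 449.2 on the GD14 arrays. GD14 and GD12 were just apart, and GD13 overlapped with both (log2 0.49, SE 0.21, adjusted p = 0.261). Axin2, a feedback inhibitor that canonical signalling induces, measured 23.8, 22.6 and 41.7 on the GD12 arrays, 32.6, 53.3 and 46.3 on the GD13 arrays, and 28.6, 49.7 and 26.7 on the GD14 arrays, and its days overlapped (log2 0.23 for GD14 against GD12, SE 0.31, adjusted p = 0.78). Axin1 and Dvl2 had log2 changes of -0.07 and -0.01.

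Lef1, the nuclear partner of beta-catenin that teeth and whiskers require in mice, measured 380.8, 423.7 and 417.9 on the GD12 arrays, 324.9, 353.1 and 312.8 on the GD13 arrays, and 277.6, 335.3 and 292.9 on the GD14 arrays. All arrays of GD13 and GD14 lay below all arrays of GD12, and the GD13 and GD14 arrays overlapped. The log2 change against GD12 was -0.43 (SE 0.14, adjusted p = 0.154) and did not pass. A dimmer probe set of Lef1 had -1.27 (adjusted p = 0.337).

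**Figure D3:**
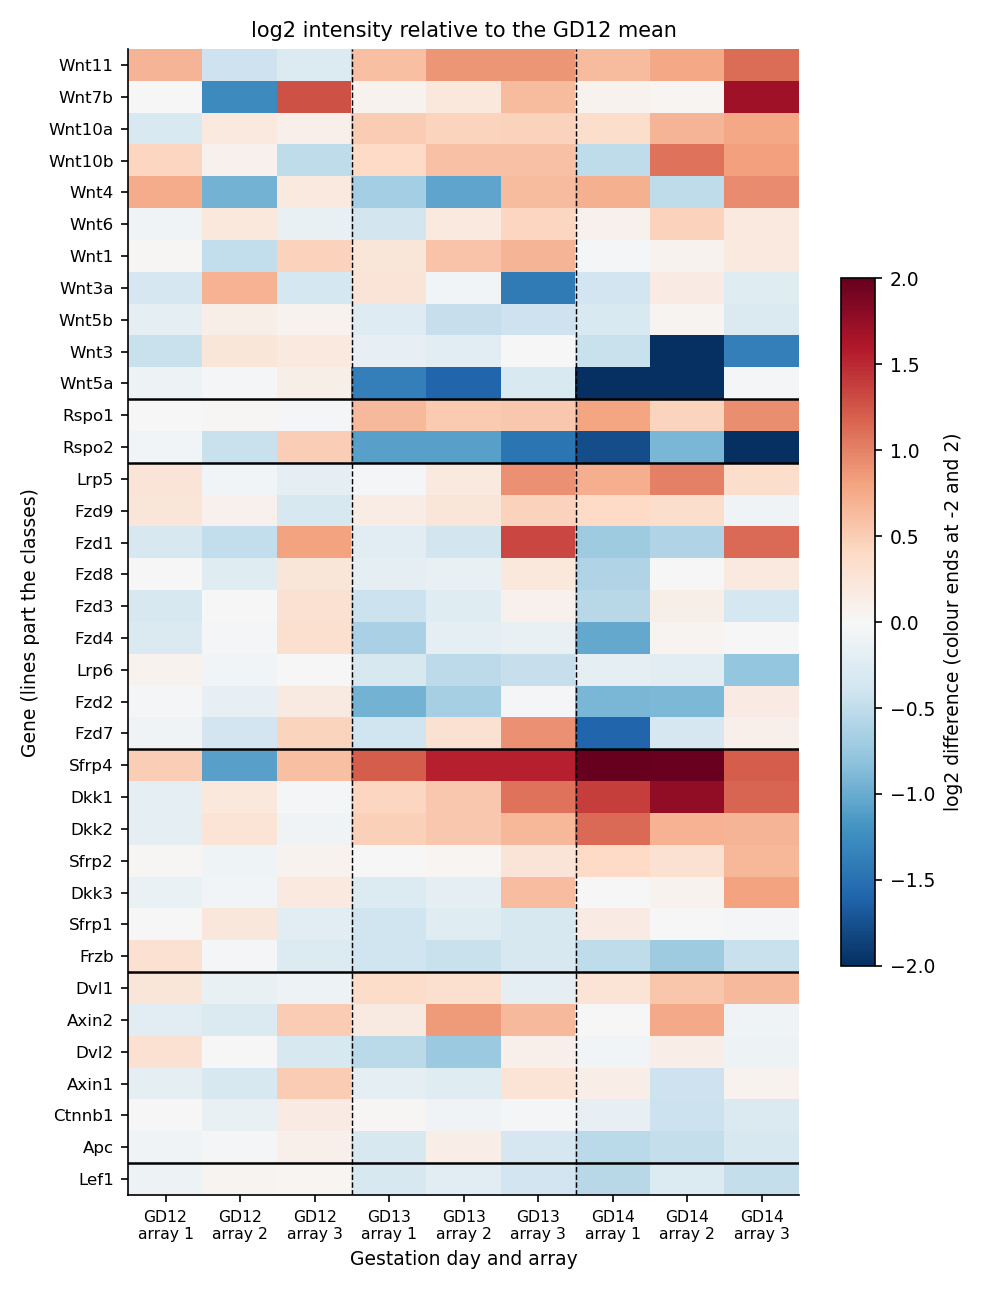
Colours show log2(intensity + 3) of the 36 tested WNT genes on each of the 9 arrays, relative to the gene's GD12 mean; columns are arrays in order of day, rows are genes, and black lines part the 6 classes. Dkk1, Dkk2, Sfrp4 and Rspo1 are red on GD14 and Rspo2 is blue, while Wnt5a is blue on the first and second GD14 arrays and near 0 on the third (number-matched differences of -1.92, -2.10 and -0.15).

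Set side by side, the classes differed in the sign of their median change, with no test of the difference. For GD14 against GD12 the median log2 change was 0.45 over the 7 secreted antagonists, of which 2 rose, 0 fell and 5 did not pass. It was 0.25 over the 11 ligands, -0.26 over the 9 receptors and co-receptors, and -0.04 over the 6 intracellular transducers. Over all 36 tested WNT genes it was 0.02, and over the 6867 genes tested on the array it was -0.01. The ligand median rests on few arrays: it was -0.03 without GD12 replicate 2 and 0.05 without GD14 replicate 3. The receptor median was 0.03 without GD14 replicate 1. Without the third arrays the antagonist median was 0.39.

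The antagonist median, taken on each array relative to the GD12 means of the genes, was 0.01, -0.04 and -0.02 on the GD12 arrays, -0.01, 0.03 and 0.61 on the GD13 arrays, and 0.39, 0.30 and 0.68 on the GD14 arrays. The third GD13 array thus lay among the GD14 arrays, whereas the other GD13 arrays lay near GD12. The receptor median was -0.61, -0.01 and 0.10 on GD14 and -0.02, -0.06 and 0.25 on GD12, so its days overlapped.

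Arrays of GD14 and GD12 did not overlap for 14 of the 36 tested WNT genes, 8 higher and 6 lower on GD14, beside 22.3% of all tested probe sets (12.1% higher and 10.3% lower). For GD13 against GD12 the count was 12 of 36 (18.5% of all probe sets), and for GD14 against GD13 it was 8 of 36 (13% of all probe sets). The antagonists Dkk1, Dkk2, Sfrp2 and Sfrp4, were among the 8 that were higher on GD14, and the others were Wnt10a, Rspo1, Lrp5 and Dvl1. The 6 that were lower were Rspo2, Lrp6, Frzb, Apc, Ctnnb1 and Lef1.

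The third array was the highest of its day on all 3 days for 9 of the 36 WNT genes, and the lowest on all 3 days for 0. Over all tested probe sets the shares were 11.8% and 11.5%. The 9 genes were the ligands Wnt1, Wnt5a and Wnt7b, the receptors Fzd1, Fzd2, Fzd7 and Fzd8, and the antagonists Dkk3 and Sfrp2. Dkk3, for example, had 168.3, 226.2 and 257.8 on the third arrays of the successive days and between 121.3 and 153.7 on the others. The actin ratio, given above, was the lowest of each day on the third arrays, where these genes were highest. Sums of cell-type markers, described below, also set the third arrays apart. Their neuronal sums were the lowest of each day, at 1693, 1320 and 1313, where the second arrays had 3109, 1867 and 1631. Osteoblast sums were lowest there too (140, 1229 and 2135), and oral epithelium sums were highest (1509, 2044.5 and 3089). Sums of the other marker lists kept no such order. Single markers did not all follow their sums. On the third GD13 array the osteoblast marker Alpl was highest of its day (316.9), and the epithelial Krt18 and Krt19 were lowest (48.1 and 53.4). On the third GD14 array the epithelial Dsp and Krt19 were lowest (490.0 and 169.2), and the neuronal Tubb3 was highest (761.3). What part the actin ratio or these markers had in the WNT values was not tested. Without the third arrays the log2 change for GD14 against GD12 was 0.25 in Wnt1, 0.69 in Wnt7b, -0.73 in Fzd7 and -0.18 in Fzd8, with adjusted p between 0.425 and 0.726.

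**Figure D4:**
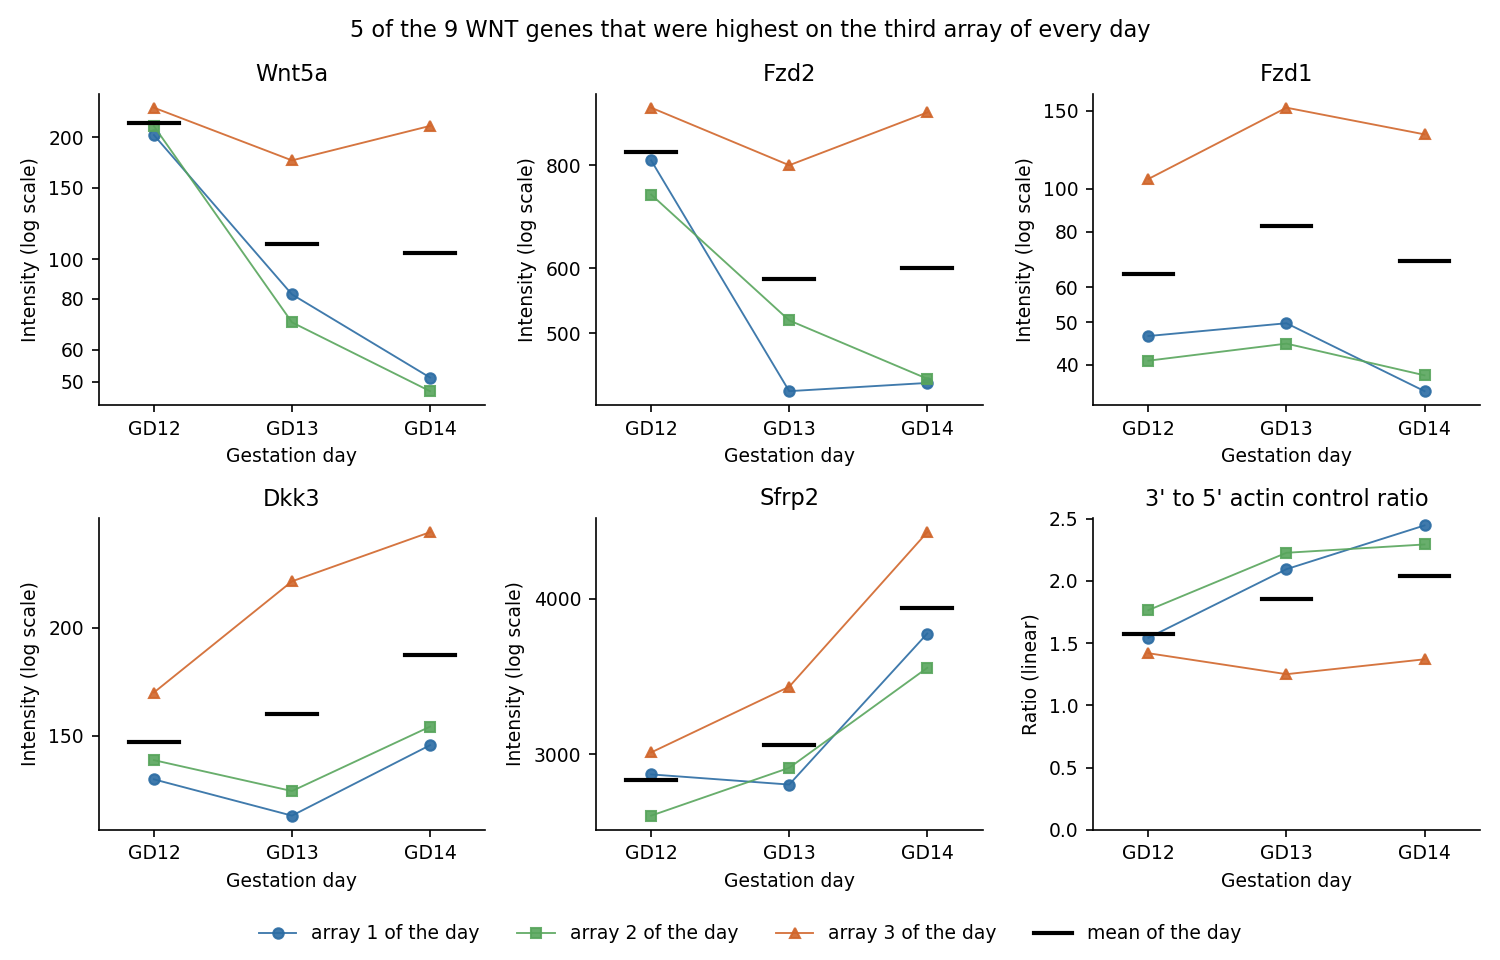
Intensities of Wnt5a, Fzd2, Fzd1, Dkk3 and Sfrp2 (log axes) and the actin 3'/5' ratio (linear axis) are plotted by gestation day for the 9 arrays, with a line for each replicate number and black bars for the mean of the day. The 5 genes were taken from the 9 that were highest on the third array of every day. That the third arrays (orange triangles) lie highest in the gene panels thus follows from the choice. In the ratio panel they lie lowest, at 1.42, 1.25 and 1.37.

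Other genes of the pathway and its known targets are read beside the 4.3% of all tested probe sets called for GD14 against GD12. Of 26 further pathway components that were tested, 1 rose and 0 fell between GD12 and GD14, and 25 did not pass. The riser was Ppp2r5a, a regulatory subunit of protein phosphatase 2A, with 334 ± 17.0 on GD14 and 158 ± 32.0 on GD12 (SD, n = 3 each; log2 1.08, adjusted p = 0.0256). Of 23 tested genes known as targets of beta-catenin, 1 rose, 2 fell and 20 did not pass. Ccn4, a matrix protein also called WISP1, had 281 ± 61.5 on GD14 and 108 ± 20.2 on GD12 (SD, n = 3 each) and rose by 1.35 on the log2 scale (adjusted p = 0.00794). Mycn, a proliferation factor, fell to 92.2 ± 5.81 on GD14 against 155 ± 20.4 on GD12 (SD, n = 3 each; log2 -0.72, adjusted p = 0.0496), and the homeobox gene Msx1 fell by 0.96 on the log2 scale (adjusted p = 0.0142). The call of Mycn lay just under the threshold. Whether the calls in these lists hold in the alternatives is not given.

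Markers of other cell types also differed between these days. Their counts of markers whose GD14 and GD12 arrays did not overlap are read beside all tested probe sets. Of those, 12.1% were higher on every GD14 array and 10.3% lower. The summed intensity of the 13 oral epithelium markers was 1248 to 1509 on GD12, 1920.5 to 2044.5 on GD13 and 2830 to 3089 on GD14, with Krt5, Krt14 and Krt15 under the filter and none at 0. For 7 of the 13, all GD14 arrays lay above all GD12 arrays, and Krt6a, a keratin, made up much of the difference, with 777.7, 865.4 and 944.0 on GD14 and 81.2, 105.0 and 111.3 on GD12. The other 6 overlapped, among them Cdh1, with 149.7, 213.1 and 149.0 on GD14 and 173.9, 162.0 and 175.4 on GD12, and Trp63, with 115.5, 94.5 and 93.1 on GD14 and 122.2, 125.8 and 104.2 on GD12.

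The facial mesenchyme markers summed to 8422 to 8869 on GD14 and 6761 to 7600 on GD12, with 2 of 13 higher on all GD14 arrays and 4 lower. The higher ones were Dlx5 and Col1a2, the lower ones Msx1, Msx2, Pax9 and Dlx1, and the other 7 overlapped. Col1a2 alone rose by more than the whole sum did, with 5030.4, 4523.2 and 4848.3 on GD14 and 2424.5, 2370.1 and 1925.8 on GD12. The 3 osteoblast markers measured summed to 2135 to 3440 on GD14 and 140 to 187 on GD12, with 3 of 3 higher. The 7 skeletal muscle markers summed to 1356 to 2152 on GD14 and 515 to 593 on GD12, with 5 higher. These lists and the leukocyte list had larger sums on GD14.

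The 6 leukocyte markers, Ptprc among them under the filter, summed to 490 to 583 on GD14 and 202.5 to 257 on GD12, with 6 of 6 higher. The 5 erythroid markers measured summed to 10475 to 13925 on GD14 and 20131 to 26495 on GD12, with 1 higher and 3 lower. The lower ones were Hba-x, Hbb-bh1 and Hbb-y, and the higher one was Alas2. Hba-a1 overlapped, with 7554.5, 6898.7 and 9674.5 on GD14 and 7004.0, 6840.0 and 8769.4 on GD12. The 8 neuronal markers, Elavl3 among them under the filter, summed to 1313 to 1742 on GD14 and 1693 to 3116 on GD12, with 0 higher and 2 lower. The sums of the 5 endothelial markers overlapped, at 467.5 to 528 on GD14 and 473 to 513 on GD12. No marker was at 0 on any array, and the part of these shifts in the WNT gene values was not tested.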

How the data were processed

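The deposited values are linear intensities of 12488 probe sets. They had been scaled by the authors, since trimming 2% at either end gave every array a mean of 150.1. The software behind the intensities is not given in the sources used here. Values were transformed to log2 after adding 3, near the 10th percentile of all values (3.1), which understates changes of dim genes. The 66 control probe sets and those with a mean at or under the 25th percentile (intensity 10.4) were left out. The other 9326 were fitted with limma 3.58.1 in R 4.3.3 as 3 group means over 9 arrays, with Benjamini-Hochberg adjustment over all of them. The step was tested on simulated data with independent spread on each array. Those data held no link between arrays of the same number and no shift of the third arrays, so neither was tested. Array medians lay between 47.15 and 56.95; arrays carry no read depth, and 3 a day limit the precision. Intensities of different probe sets do not rank transcripts.

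Arrays of the same number had residual correlations of 0.19 to 0.42 across days, so they deviated together. For different numbers the correlations were -0.29 to -0.02. Residuals were taken from the day means, so positive values for the same number push those for different numbers below them. Unless stated, the calls, SE and adjusted p are of the fit without the replicate block. The blocked value stands beside each call of a tested WNT gene that it changed. For the other gene lists and the further probe sets of a gene, no blocked value is given. All 41 gene IDs were found in the RefSeq gene table, and 0 symbols changed. Values on every array were to be given for called genes and up to 2 of the brightest per class, and other genes by means, changes or ranges; further genes with values on every array were added after their values were seen. From the lists of other pathway genes and targets, called genes are named. Alternatives were other scalings, pseudocounts, filters and variance models, the replicate block, the actin ratio as covariate, and arrays left out. The genes, lists and tests were chosen with earlier results of these data known. Plots used Python 3.11.15, numpy 2.4.6, pandas 2.3.3 and matplotlib 3.10.9.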

Additional observations from a re-analysis of the deposited data

How the results depend on the processing

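The count of WNT genes called for GD14 against GD12, 4 as reported, was 2 with median scaling, with no filter, with the replicate block and without the third array of every day. It was 5 with a pseudocount of 11 and with the mean of a gene's probe sets (each adding Sfrp4), and 6 with array weights (adding Sfrp4 and Frzb). It was 1 when only the compared groups were fitted, and 1 to 3 with single arrays left out. The F-test count, 1 as reported, was 2 with median scaling, with a pseudocount of 11 and with trended robust variances, 3 with the filter at the median, 4 with array weights, and 0 with no filter or with the actin ratio as covariate. It was 0 to 1 with single arrays left out, and where it was 1 the gene was not always Dkk1. The median log2 change of the ligands, 0.25 as reported, was -0.39 with the filter at the median, 0.051 with array weights, and -0.031 to 0.25 with single arrays left out. That of the TCF/LEF class, Lef1 alone, was -0.85 with the mean of its probe sets. The replicate block ended the calls of Dkk2 and Rspo2 and changed no other WNT call for GD14 against GD12. The other 210 values of counts and class medians moved by less than the spread between arrays (counts by at most 1.5 times), and the cause of the changes was not tested. No called gene changed direction in the alternatives run. Fitting only the compared groups gives no F-test and no step difference. Over single genes, 39 values lost a call, 11 gained one and 726 did neither, of which 3 moved by more than the spread between arrays.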
